A study of Mus musculus with 8 samples.

Results

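Membrane proteins of the Ms4a family were followed through the nuclei of mouse visceral white adipose tissue. Of the 21 Ms4a genes among the features counted, 7 were chosen by name: Ms4a7, Ms4a14, Ms4a4a, Ms4a4c, Ms4a6b, Ms4a6c and Ms4a6d. The choice was made with values measured in these same libraries in view, so their higher level in macrophages than in other nuclei is a description and carries no test. For the same reason, the differences between groups given below describe these genes, and their p-values are no independent evidence about them. Nuclei came from snap-frozen tissue of 8 mice, stained with the DNA dye DAPI and sorted by flow cytometry, and their RNA was counted in droplets as unique molecular identifiers (UMIs), each standing for 1 captured molecule. All 8 mice carried the red fluorescent protein mCherry at 1 copy of the p21 locus (Cdkn1a, a cell cycle inhibitor), so the inserted genes were made only where the p21 promoter was active. Of these, 2 mice of genotype p21+/mCherry ate a standard diet (mCherry SD) and 2 of the same genotype ate a high-fat diet (mCherry HFD). A high-fat diet was also given to 2 p21+/mCherry-Tert mice (Tert HFD), which add Tert, the catalytic subunit of telomerase, and to 2 p21+/mCherry-TertCi mice (TertCi HFD). The labels do not spell out what TertCi is, and age is not given in the sources used here. Mice are named below by group and label number. The questions asked of the 7 genes were how their RNA in macrophages differed between diets in mice with mCherry alone, and between the Tert, TertCi and mCherry-only genotypes on the high-fat diet.

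Ms4a genes lie side by side in 1 cluster and encode small proteins that cross the cell membrane several times. The best known relatives are Ms4a1, which is CD20 of B cells, and Ms4a2, the beta chain of the high-affinity IgE receptor of mast cells, and several of the others are made by monocytes and macrophages. Ms4a4a is found in macrophages beside the fungal receptor dectin-1 (Clec7a), Ms4a7 is used as a marker of macrophage populations in several tissues, Ms4a4c and Ms4a6c are known from monocytes, and human MS4A4A and MS4A6A have been tied genetically to soluble TREM2. In adipose tissue, macrophages near vessels clear debris and hold scavenger receptors, whereas lipid-associated macrophages gather around dying fat cells and make Trem2, Gpnmb and Cd9.

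The genes lie in the mouse chromosome 19 cluster in the order Ms4a14, Ms4a7, Ms4a4a, Ms4a4c, Ms4a6c, Ms4a6b and Ms4a6d, with other family genes between some of them. Upstream sequence was taken from RefSeq on build GRCm38.p6 for 6 of the 7 members, and no entry for Ms4a6d was matched. The submitters' processing notes name build mm39, so the coordinates below belong to the RefSeq table only. Shown first are the 250 bases before the starts of Ms4a7 and Ms4a14, neighbours on the minus strand whose RNA was higher on the high-fat diet in mCherry mice, at chr19:11336147-11336396 and chr19:11314455-11314704. The others are on the plus strand: Ms4a4a at chr19:11375238-11375487, whose RNA was lower there, and Ms4a6c at chr19:11469118-11469367, which is set beside its near relative Ms4a6b. Ms4a7 has a second start in the table, and its window is not shown, nor is that of Ms4a6b, whose last 108 bases lie in a GENCODE transcript of the same gene. In Ms4a14 the capitals mark 1 match each to GAGGAA (bound by PU.1, here on the minus strand) and TGACTCA (AP-1). In Ms4a4a they mark 2 matches to TGCTGA (bound by MAF factors), and in Ms4a6c a run shared with the window of Ms4a6b.
Ms4a7: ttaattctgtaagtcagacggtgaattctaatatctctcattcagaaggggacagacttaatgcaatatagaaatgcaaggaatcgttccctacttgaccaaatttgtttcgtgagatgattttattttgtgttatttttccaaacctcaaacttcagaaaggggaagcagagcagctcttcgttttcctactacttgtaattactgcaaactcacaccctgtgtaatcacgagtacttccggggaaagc
Ms4a14: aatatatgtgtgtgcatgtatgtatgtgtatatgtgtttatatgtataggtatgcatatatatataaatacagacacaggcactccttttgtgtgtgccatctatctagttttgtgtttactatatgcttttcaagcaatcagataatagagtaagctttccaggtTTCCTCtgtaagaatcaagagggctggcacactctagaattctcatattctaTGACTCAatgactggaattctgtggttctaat
Ms4a4a: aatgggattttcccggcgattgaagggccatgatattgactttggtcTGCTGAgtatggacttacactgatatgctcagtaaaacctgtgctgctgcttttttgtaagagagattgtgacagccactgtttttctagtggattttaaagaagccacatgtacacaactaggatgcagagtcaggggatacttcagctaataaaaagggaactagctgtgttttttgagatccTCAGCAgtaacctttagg
Ms4a6c: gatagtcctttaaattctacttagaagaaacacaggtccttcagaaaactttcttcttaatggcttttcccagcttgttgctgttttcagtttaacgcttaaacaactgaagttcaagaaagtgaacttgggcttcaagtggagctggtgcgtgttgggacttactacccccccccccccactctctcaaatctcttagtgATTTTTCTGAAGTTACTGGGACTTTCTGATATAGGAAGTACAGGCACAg
Motifs were searched on both strands of these windows, allowing matches to overlap. GAGGAA was in 23.3% of the 32851 RefSeq mouse promoter windows of the same length, TGACTCA in 4.46% and TGCTGA in 16.1%. Of the 7 member windows, 2 held GAGGAA (Ms4a14 at 84 bases before the start, and Ms4a4c), 1 held TGACTCA (Ms4a14, at 32 bases) and 1 held TGCTGA (Ms4a4a, at 203 and 18 bases). For Ms4a4a the bases after that start were not found in a GENCODE transcript of the gene, so these distances hold for the RefSeq start only. TCACGTG, bound by MiT/TFE factors, was in none of the 7 and in 3.13% of all windows. The IRF motif searched was likewise in none of the 7 and in 2.98% of all windows. The identical run of Ms4a6b and Ms4a6c was 48 bases long and began 118 bases before the start of Ms4a6b and 49 before that of Ms4a6c. In every other pair of member windows the longest run shared was 7 to 9 bases.

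Near relatives also share transcript sequence, where reads cannot be told apart. In GENCODE transcripts, 3.44% of the 50-base windows of Ms4a6b were also found in Ms4a6c or Ms4a6d, 5.85% of Ms4a6c windows in Ms4a6b, and 2.31% of Ms4a6d windows in Ms4a6b. Ms4a4c shared 8.19% of its windows with Ms4a4b or Ms4a4d, so the level of Ms4a4c is the least certain of the members. Ms4a7, Ms4a14 and Ms4a4a shared no window with another family gene.

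Libraries held 23378488 to 139749876 UMIs, and 30209 nuclei were kept. Clusters with markers of 2 lineages, which enter no class, took 59.8% and 51.7% of the nuclei of the mCherry SD mice and 16.1% to 31.5% in the 6 high-fat mice, so the diet contrasts use a smaller part of the standard-diet nuclei. Of the nuclei kept, 8515 were in clusters named macrophage-like by a marker list, from 105 and 161 in the mCherry SD mice to 3752 in mCherry HFD rep128. Their median depth was lowest in Tert HFD rep136, at 1363 UMIs, and highest in mCherry HFD rep128, at 6389 UMIs. The 12 macrophage markers were all detected in every mouse and summed to 4359 to 7121 counts per 1000000 UMIs (CPM) over the macrophage-like nuclei. Clusters made again without any Ms4a gene gave 8351 macrophage-like nuclei, 8343 of them in the first set. The mCherry SD mice then had 95 and 150 such nuclei in place of 105 and 161, and the same 4 members passed with the diet. Libraries shared at most 0.348% of nucleus barcodes. Genes of other cell types moved with the groups within macrophage-like nuclei: the 10 adipocyte markers, all detected in every mouse, summed to 1404 to 1960 CPM in the standard-diet mice, 753 to 913 in mCherry HFD, 1084 to 1626 in Tert HFD and 1240 to 1626 in TertCi HFD. The B cell list, of which 6 to 10 of 10 genes were detected, summed to 1285 to 1443, 248 to 508, 672 to 703 and 903 to 1043 CPM, with the B cell receptor gene Cd79b at 0 in both mCherry SD mice. This list is no measure of B cells here, since it summed to 5323 CPM in adipocyte-like, 6185 in progenitor-like and 5638 in mural-like nuclei, against 461 over all macrophage-like nuclei. The cycling list summed to 8.39 to 25.4, 137 to 164, 39.9 to 70.5 and 43.97 to 81.0 CPM over the groups in that order. The part of these in the results below was not tested. Over all barcodes, Tert was at 2.01 to 2.76 CPM in the 4 libraries labelled Tert or TertCi and at 3.27 to 3.98 CPM in the 4 labelled mCherry alone, so it was lower in the 2 libraries labelled with an added Tert, and in those labelled TertCi, than in the rest. Whether RNA of the inserted gene is counted as Tert is not given in the sources used here. The mCherry sequence gave 25 UMIs in all 8 libraries. The genotype of each library below is thus that of its label, and every direction between genotypes rests on the labels.

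Of the named classes, macrophage-like nuclei held the highest median level of 6 of the 7 members over the 6 high-fat mice. Levels below are CPM, computed from a gene's UMIs and all UMIs summed over 1 mouse's nuclei of a class, so each mouse gives 1 value. Over the 6 mice on the high-fat diet, Ms4a7 in macrophage-like nuclei ran from 96.8 to 305 CPM with a median of 147, against a median of 53.6 in endothelial-like, 42.5 in mural-like, 26.9 in dendritic-like, 18.4 in adipocyte-like and 8.12 in progenitor-like nuclei. The neighbours in that order overlapped from mouse to mouse, so their ranks are not firm. The 12 macrophage markers summed to 5449 CPM over all macrophage-like nuclei, and also to 4080 in dendritic-like, 3056 in endothelial-like, 1844 in mural-like, 948 in adipocyte-like and 491 in progenitor-like nuclei. The part of macrophage RNA in the members' levels of these classes was not tested. Ms4a14 kept the same order of classes, from a median of 52.0 CPM in macrophage-like to 3.06 in progenitor-like nuclei. Ms4a4a, Ms4a6b, Ms4a6c and Ms4a6d were likewise highest in macrophage-like nuclei, at medians of 67.6, 97.6, 70.6 and 72.9 CPM. For Ms4a4c the dendritic-like nuclei had the highest median, 13.8 CPM with a range of 0 to 27.6, and macrophage-like nuclei ran from 3.78 to 7.12 CPM, so these overlapped. The B cell gene Ms4a1 was at 0 to 7.19 CPM and the mast cell gene Ms4a2 at 0 to 0.712 CPM in macrophage-like nuclei.

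**Figure D1:**
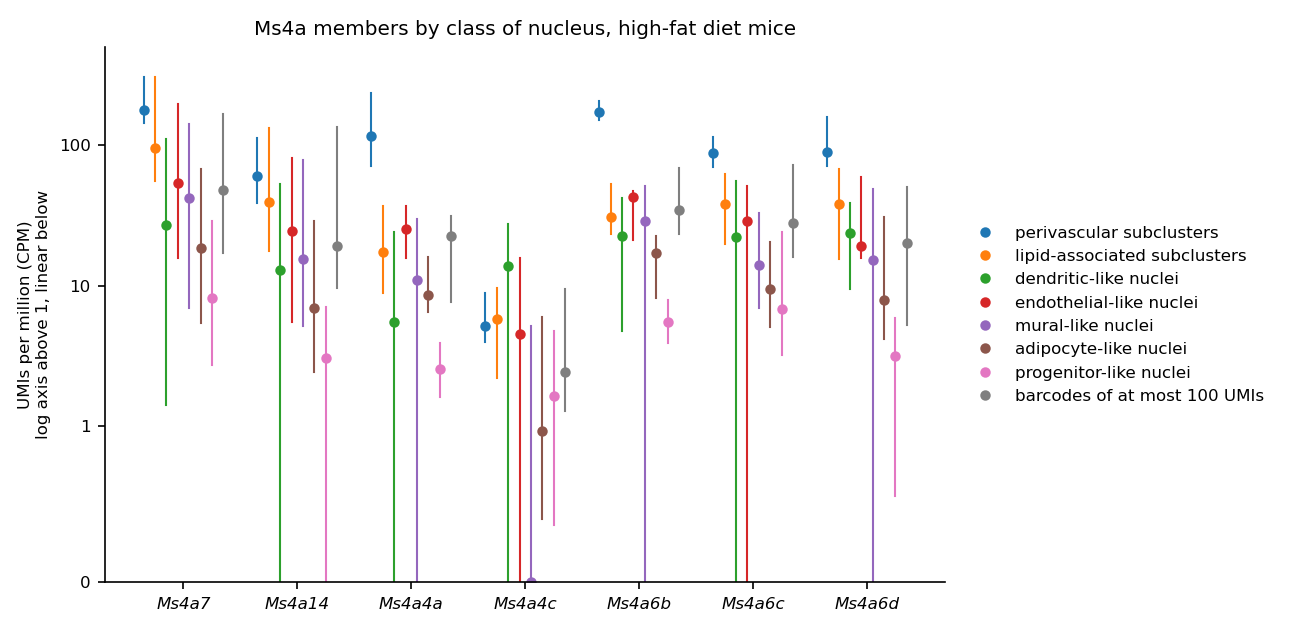
Level of the 7 members (CPM, on an axis that is logarithmic above 1 and linear below) in the 2 macrophage subsets, in the other classes and in barcodes of at most 100 UMIs; points are medians over the high-fat diet mice and lines run from the lowest to the highest mouse. Perivascular subclusters have the highest median for 6 members, and dendritic-like nuclei, at 13.8 CPM, for Ms4a4c.

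RNA outside nuclei carried the members too. Barcodes of at most 100 UMIs, which sample free RNA of the suspension, held Ms4a7 at 10.0 and 9.21 CPM in mCherry SD, 167 and 126 in mCherry HFD, 56.5 and 39.8 in Tert HFD and 17.0 and 20.0 in TertCi HFD. The ratio of macrophage-like nuclei to free RNA was thus 1.83 and 1.85 in mCherry HFD and 2.43 to 8.42 in the other 6 mice. Ms4a14 in free RNA of mCherry HFD rep129 was at 135 CPM, above the 117 CPM of that mouse's macrophage-like nuclei, and in rep128 at 87.97 against 128.3 CPM. How much of the members' UMIs in any class of nuclei came from free RNA was not tested.

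In mice with mCherry alone, the high-fat diet went with more Ms4a7 and Ms4a14 RNA and less Ms4a4a and Ms4a6b RNA in macrophage-like nuclei, and Ms4a4c, Ms4a6c and Ms4a6d did not pass the test. Counts were summed per mouse and tested with edgeR's quasi-likelihood test over 13525 genes, with Benjamini-Hochberg adjustment and a threshold of 0.05. Of the 7 members, 2 were higher and 2 lower, while 20.7% of all genes tested passed in this contrast (11.3% higher and 9.46% lower). The median log2 difference was 0.25 over the members and 0.10 over all genes. Of the genes that passed, 54.4% were higher, and with library totals in place of the TMM scaling of edgeR 67.2% were higher and the median of all genes was 0.26.

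Ms4a7 was at 78.3 and 77.6 CPM in mCherry SD and at 305 and 234 in mCherry HFD. Both high-fat values lay above both standard-diet values, a 3.11-fold difference (log2 1.63, SE 0.252, edgeR adjusted p = 0.00102), which passed in each of the 8 fits that leave out 1 mouse. With each nucleus thinned to 1000 UMIs, 6.67% and 8.70% of macrophage-like nuclei had a Ms4a7 UMI in mCherry SD against 23.6% and 20.2% in mCherry HFD (20.95% and 27.3% against 69.5% and 41.9% at their full median depths of 3031, 4163, 6389 and 2639 UMIs). In adipocyte-like nuclei, which should lack the gene, the thinned shares were 1.16% and 0.932% in mCherry SD and 4.64% and 4.81% in mCherry HFD (full median depths 3832, 5820, 17027 and 8088 UMIs). Ms4a14 was at 41.9 and 40.1 CPM in mCherry SD and at 128.3 and 117 in mCherry HFD, again without overlap. That difference was 2.70-fold (log2 1.43, SE 0.255, adjusted p = 0.00243), and it did not pass without mCherry SD rep146 (adjusted p = 0.0692) or with nuclei thinned to 1000 UMIs (0.0529).

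Ms4a4a, the partner of dectin-1, went the other way, at 89.5 and 112 CPM in mCherry SD and 55.9 and 37.6 in mCherry HFD. Each high-fat mouse was below each standard-diet mouse, by 2.42-fold (log2 -1.27, SE 0.346, edgeR adjusted p = 0.0228). The call was lost without either mCherry SD mouse (adjusted p = 0.0815 without rep144 and 0.247 without rep146), without mCherry HFD rep129 (0.0739), with nuclei thinned (0.0879) and with library totals in place of TMM (0.0640). Ms4a6b was at 115 and 145.7 CPM in mCherry SD and 83.7 and 72.5 in mCherry HFD, also without overlap. It fell by 0.92 on the log2 scale (SE 0.210, adjusted p = 0.0100), a call lost without mCherry SD rep146 (0.156) and with nuclei thinned (0.104).

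For Ms4a6c and Ms4a6d the diet difference did not pass. Ms4a6c was at 64.3 and 62.8 CPM in mCherry SD and 74.9 and 75.5 in mCherry HFD. The high-fat mice were a little higher, with a log2 difference of 0.09 (95% interval -0.60 to 0.78, edgeR adjusted p = 0.848). Ms4a6d was at 72.7 and 53.5 against 77.7 and 87.3 CPM, without overlap, a log2 difference of 0.27 (-0.55 to 1.08, adjusted p = 0.559), which leaves room for a 2-fold rise. Ms4a4c stood at 5.59 and 4.01 against 5.53 and 6.77 CPM, resting on 2 and 3 UMIs in the mCherry SD mice. Its interval ran from -1.54 to 2.05, so a 2-fold change in either direction was not excluded at this depth.

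**Figure D2:**
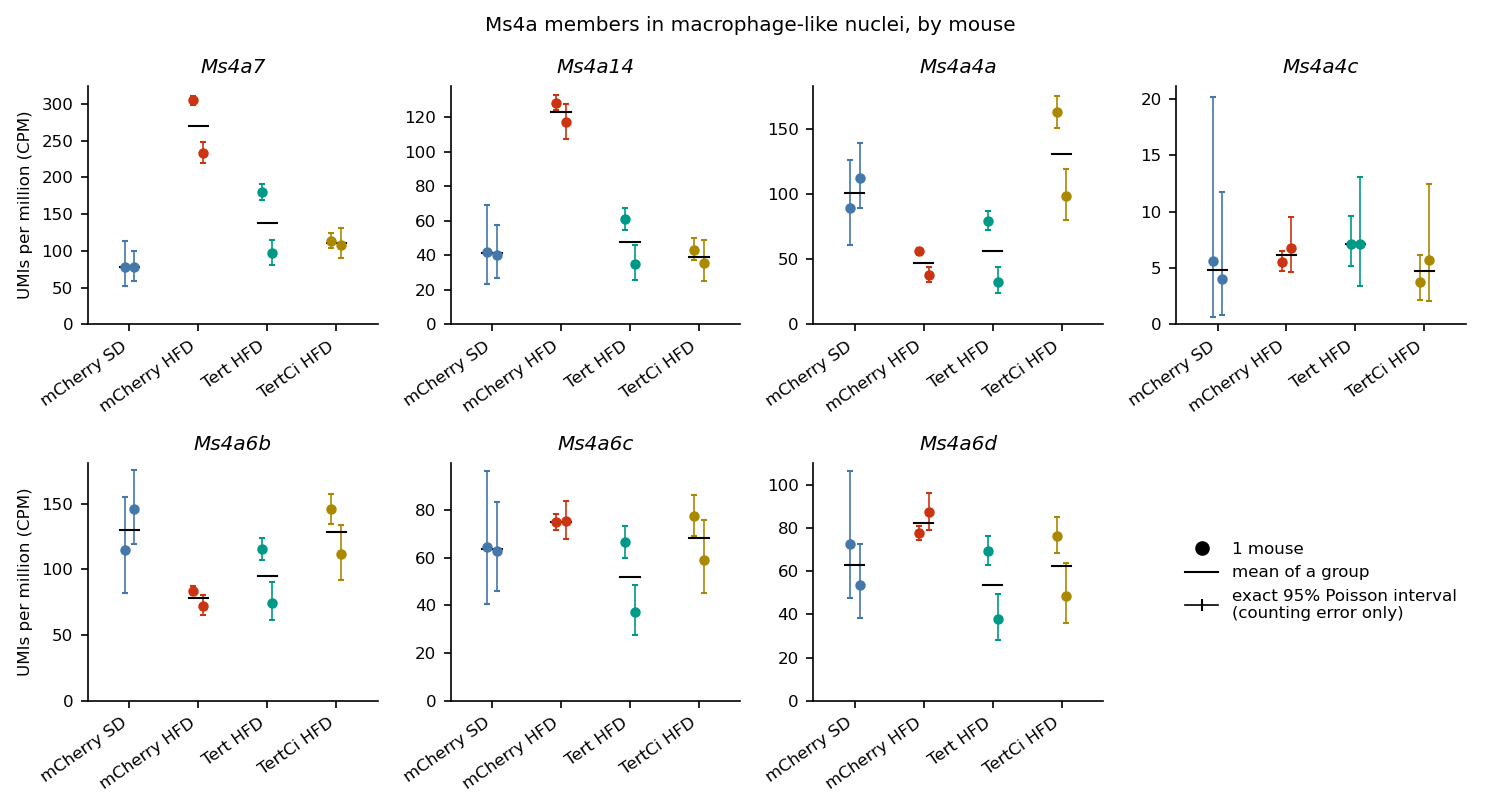
Level of each member in macrophage-like nuclei (CPM) in the 8 mice by group; each point is 1 mouse with its exact 95% Poisson interval, which covers counting error only, and short lines mark group means. For Ms4a7 and Ms4a14 both mCherry HFD mice lie above the other 6, and for Ms4a4a the TertCi HFD mice at 163 and 98.2 CPM lie above both mCherry HFD mice.

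On the high-fat diet, Ms4a7 and Ms4a14 RNA was lower in macrophage-like nuclei of Tert and of TertCi mice than of mCherry mice, and Ms4a4a and Ms4a6b RNA was higher in TertCi mice. These contrasts and the diet contrast share the 2 mCherry HFD mice, so a low or high value there moves all of them, and the values are given side by side. In the Tert contrast 2 members were lower and none higher (17.6% of 13525 genes passed, 6.87% higher and 10.8% lower), with a median log2 difference of -0.36 over the members and -0.05 over all genes. In the TertCi contrast 2 were higher and 2 lower (23.6% of genes passed, 9.78% higher and 13.8% lower), with medians of -0.18 and -0.08. With library totals in place of TMM, the share of passing genes that were higher went from 38.9% to 25.2% for Tert and from 41.4% to 26.8% for TertCi, and the medians of all genes were -0.19 and -0.25.

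Ms4a7 was at 179.9 and 96.8 CPM in Tert HFD and 114 and 109 in TertCi HFD, all 4 below the mCherry HFD mice at 305 and 234. It was 1.75-fold lower with Tert (log2 -0.81, SE 0.209, edgeR adjusted p = 0.0208) and 2.16-fold lower with TertCi (-1.11, SE 0.215, adjusted p = 0.00403). The Tert call was lost without mCherry HFD rep128 (-0.59, adjusted p = 0.234) and without Tert HFD rep136 (-0.55, 0.0539), the shallowest library. The TertCi call was lost without mCherry HFD rep128 (-0.89, 0.0504) and without TertCi HFD rep138 (-1.13, 0.0631).

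Ms4a14 was at 60.9 and 34.9 CPM in Tert HFD and 43.0 and 35.3 in TertCi HFD, against 128.3 and 117 in mCherry HFD. None of these 4 mice reached the mCherry HFD values, and 3 of the 4 lay within 10 CPM of the standard-diet mice at 41.9 and 40.1. It was 2.26-fold lower with Tert (log2 -1.17, SE 0.202, edgeR adjusted p = 0.00303) and 2.74-fold lower with TertCi (-1.45, SE 0.211, adjusted p = 0.000790). Both calls held in each of the 8 fits without 1 mouse and in the 9 other settings tried, the only member for which that was so in both contrasts.

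Ms4a4a was at 79.3 and 32.8 CPM in Tert HFD and 163 and 98.2 in TertCi HFD, against 55.9 and 37.6 in mCherry HFD. The Tert mice fell on either side of the mCherry HFD mice, and the TertCi mice were above them. Ms4a4a rose 3.15-fold with TertCi (log2 1.66, SE 0.305, edgeR adjusted p = 0.00304), a call lost without TertCi HFD rep138 (1.24, 0.0889). The Tert difference was 0.44 (SE 0.306, adjusted p = 0.358), and without the shallow Tert HFD rep136 it was 0.77 and passed (0.0407). Ms4a6b was at 115 and 74.8 CPM in Tert HFD and 145.8 and 112 in TertCi HFD, against 83.7 and 72.5 in mCherry HFD. It rose 1.87-fold with TertCi (log2 0.90, SE 0.190, adjusted p = 0.00611, lost without TertCi HFD rep138 at 0.129 and with nuclei thinned at 0.0767) and differed by 0.44 with Tert (adjusted p = 0.132), which was 0.59 and passed without Tert HFD rep136 (0.0432).

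Ms4a6c ranged from 37.0 to 77.3 CPM and Ms4a6d from 37.7 to 76.6 over the 4 Tert and TertCi mice, with the lowest value of each in Tert HFD rep136. Neither passed in either contrast: the log2 differences were -0.36 and 0.05 for Ms4a6c (edgeR adjusted p = 0.268 and 0.886) and -0.44 and -0.18 for Ms4a6d (0.241 and 0.643). Without Tert HFD rep134 the Tert difference of Ms4a6c was -0.78 and passed (0.0418). Ms4a4c was at 7.12 and 7.12 CPM in Tert HFD and 3.78 and 5.72 in TertCi HFD, and it did not pass either (0.578 and 0.655).

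Tert and TertCi mice were also compared directly. No member passed, and neither did any of the 13525 genes tested by edgeR, of which 489 had an unadjusted p under 0.05. The difference was widest for Ms4a4a, at log2 -1.22 for Tert against TertCi (SE 0.313, 95% interval -2.09 to -0.35, unadjusted p = 0.0021, adjusted p = 1), and with no filter on low counts it passed. Leaving out 1 mouse, the difference of Ms4a4a ran from -1.94 to -0.82. For Ms4a7 and Ms4a14 the differences were 0.30 (-0.31 to 0.91) and 0.28 (-0.33 to 0.89), which leaves room for a difference of nearly 2-fold in 1 direction.

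The makeup of the family within macrophage-like nuclei differed between the groups, and its total is given first. Summed over the 7 members, the level was 467 and 496 CPM in mCherry SD, 731 and 631 in mCherry HFD, 578 and 321 in Tert HFD and 623 and 467 in TertCi HFD. Of the members' UMIs, Ms4a7 and Ms4a14 together made up 25.7% and 23.7% in mCherry SD, 59.3% and 55.6% in mCherry HFD, 41.7% and 41.0% in Tert HFD and 25.2% and 30.8% in TertCi HFD. Ms4a4a and Ms4a6b made up 43.7% and 52.0%, 19.1% and 17.5%, 33.7% and 33.5%, and 49.5% and 44.9% in the same order. The 2 shares thus changed places between mCherry SD and mCherry HFD, and the Tert mice stood between. Ms4a6c and Ms4a6d stayed at 20.9% to 29.3% of the members' UMIs in all 8 mice. The ratio of Ms4a7 to Ms4a14 ran from 1.87 to 3.08. These pairs were formed after their values were seen and carry no test.

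**Figure D3:**
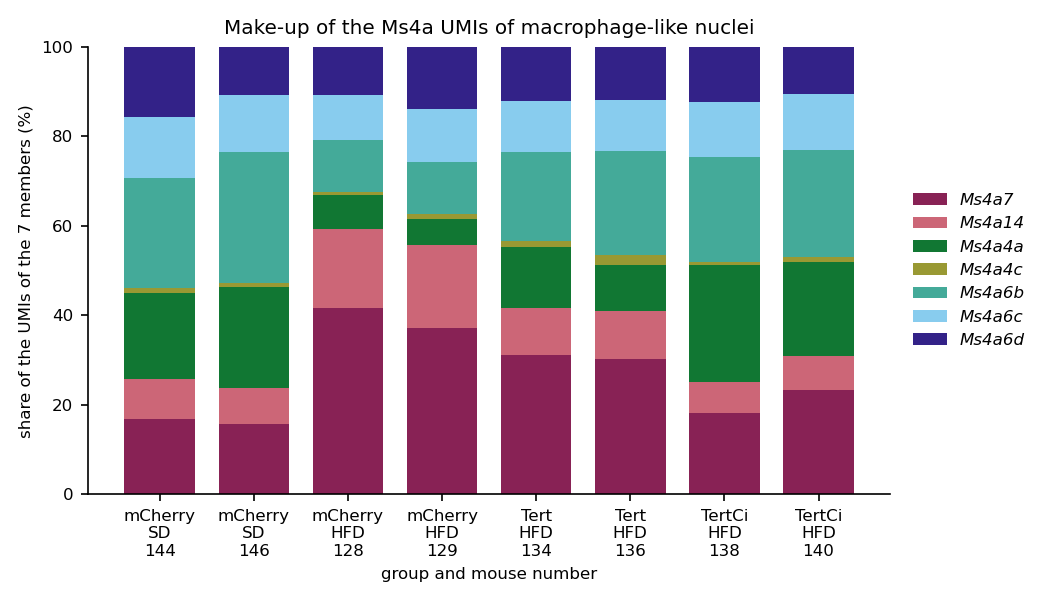
Share of the 7 members' UMIs taken by each member in macrophage-like nuclei (percent of the members' UMIs) in each of the 8 mice; each bar sums to the whole. Ms4a7 and Ms4a14 together take 59.3% and 55.6% in mCherry HFD and 25.2% to 30.8% in TertCi HFD.

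Macrophage-like nuclei were clustered again, which gave 5 large subclusters and 4 others of 21 to 72 nuclei. By marker lists, subclusters 0 and 1 were named perivascular (Cd163 and F13a1 among their 10 leading genes) and subclusters 2, 4 and 6 lipid-associated. Ctsk was among the 10 leading genes of subclusters 4 and 6, and Gpnmb, Mmp12 and Itgax among those of subcluster 6. Subcluster 2 was led by Tmem267, Taco1, Mir6236 and Ksr2, with Itgax in place 10, so its name is the least certain. The cluster led by Tmem267 and Taco1 stayed unnamed when clusters were made without Ms4a genes, with doublets kept or with 1000 UMIs as the minimum in every library. At a resolution of 0.8 it was named lipid-associated in the first set of nuclei and with that minimum, and stayed unnamed in the other 2. Different subclusters held these names in different groups: mCherry HFD mice made up 93.1% of subcluster 1, 97.6% of subcluster 4 and 97.4% of subcluster 6, and 0.973% of subcluster 0 and 2.95% of subcluster 2. Lipid-associated nuclei made up 17.1% and 10.6% of macrophage-like nuclei in mCherry SD, 77.7% and 76.8% in mCherry HFD, 30.9% and 66.5% in Tert HFD and 33.6% and 43.4% in TertCi HFD. The Ms4a genes were among those clustered, so levels between subclusters are given without a test.

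Of the 5 large subclusters, with UMIs of all mice pooled, Ms4a7 and Ms4a14 were highest in subcluster 4, at 450.5 and 199 CPM, and lowest in subcluster 2, at 73.8 and 29.9 CPM. Ms4a4a and Ms4a6b were instead highest in the perivascular subclusters, Ms4a4a at 156 CPM in subcluster 0 and 116 in subcluster 1, Ms4a6b at 172 and 183. In the lipid-associated subclusters 2, 4 and 6, Ms4a4a was at 16.2, 73.2 and 9.91 CPM and Ms4a6b at 30.4, 99.6 and 21.2. Among these 5, Ms4a6c and Ms4a6d were lowest in subclusters 2 and 6 as well, with Ms4a6c at 38.4 and 30.1 CPM against 85.5 to 110.4 in the other 3, and Ms4a6d at 32.8 and 49.7 against 85.8 to 126. Within mCherry HFD mice, Ms4a7 in subclusters 1, 4 and 6 was at 308, 477 and 211 CPM in rep128 and at 207, 352 and 142 in rep129, and Ms4a4a at 122, 82.6 and 10.8 and at 89.3, 39.4 and 4.99. Of these 3 subclusters, Ms4a7 was thus highest in subcluster 4 and Ms4a4a in subcluster 1, in each of these 2 mice. The order of the pooled levels was not that of every mouse. In Tert HFD rep134, Ms4a7 was at 104.7 CPM in subcluster 2, 357 in subcluster 4 (27 nuclei) and 67.3 in subcluster 6 (49 nuclei), and Ms4a14 at 36.6, 139.6 and 32.3 CPM, so subcluster 6 was the lowest of these there. The low place of subcluster 2 was not seen for every other member either: in its 27 nuclei of mCherry HFD rep129, Ms4a14 was at 76.7, Ms4a6c at 127.9 and Ms4a6d at 89.5 CPM, on 6 to 10 UMIs each.

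**Figure D4:**
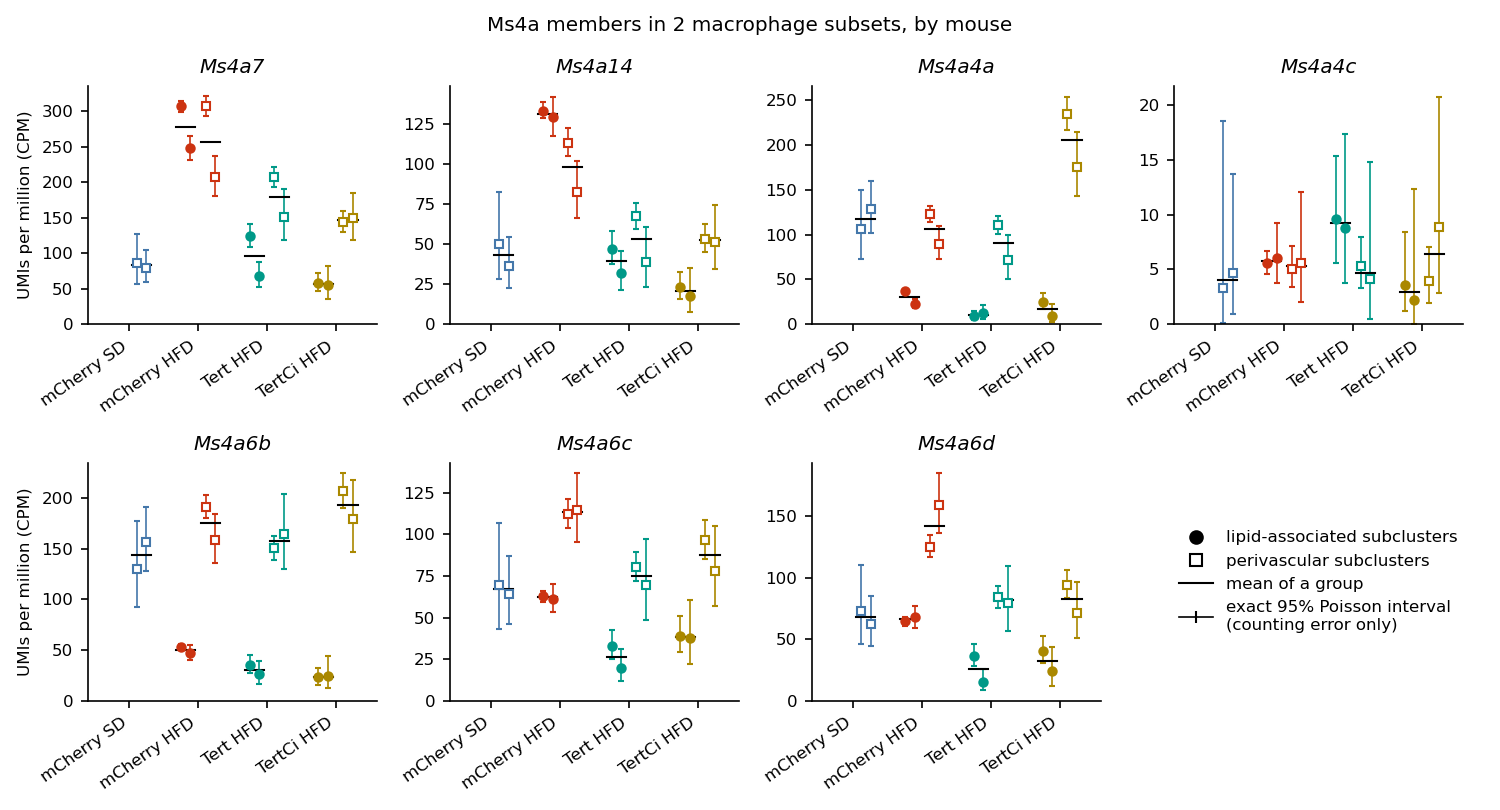
Level of each member (CPM) in perivascular (open squares) and lipid-associated (filled circles) subclusters by mouse and group, for mice with at least 20 such nuclei, with exact 95% Poisson intervals of counting error and lines at group means. Ms4a4a in lipid-associated subclusters stays below 40 CPM in all 6 mice shown, and in perivascular subclusters it runs from 71.7 to 235 CPM.

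Within the perivascular subclusters, Ms4a7, Ms4a14 and Ms4a6d were higher on the high-fat diet, and no member was lower (15.1% of 9151 genes passed, 8.51% higher and 6.56% lower). Ms4a4c was too low to enter, so 6 members were tested. The mCherry SD nuclei were nearly all of subcluster 0 and the mCherry HFD nuclei nearly all of subcluster 1. Subcluster 1 had 10 raised perivascular markers and also 7 raised lipid-associated ones, whereas subcluster 0 did not score for that list, and the part of this in the differences was not tested. Ms4a7 was at 86.5 and 79.9 CPM in mCherry SD and 307 and 208 in mCherry HFD, which did not overlap (log2 1.51, SE 0.240, edgeR adjusted p = 0.000782). Ms4a14 was at 49.9 and 36.0 against 113 and 82.5 CPM (1.13, SE 0.304, 0.0201), lost without mCherry SD rep146 (0.289) or mCherry HFD rep128 (0.193). Ms4a6d was at 73.2 and 62.6 against 125 and 159 CPM (0.92, SE 0.243, 0.0183), lost without mCherry SD rep144 (0.0515), mCherry SD rep146 (0.227) or mCherry HFD rep129 (0.0825). The fall of Ms4a4a and Ms4a6b seen over all macrophage-like nuclei did not pass here: Ms4a4a was at 106 and 128.4 against 123 and 89.9 CPM (log2 -0.29, 95% interval -0.96 to 0.39) and Ms4a6b at 129.7 and 157 against 191 and 158 (0.12, -0.42 to 0.66). Ms4a6c differed by 0.62 (adjusted p = 0.0785) and passed in 2 of 3 other settings (up to 0.79). Too few lipid-associated nuclei were found in the mCherry SD mice (18 and 17) for the same contrast there.

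Between genotypes, 1 member passed with Tert and 3 with TertCi in the perivascular subclusters. With Tert, Ms4a6d was lower (84.2 and 79.9 CPM against 125 and 159, log2 -0.68, SE 0.205, edgeR adjusted p = 0.0408), 1 of 6 members tested, where 11.7% of genes passed (3.77% higher and 7.9% lower). Of the 8 fits without 1 mouse, that call passed only without TertCi HFD rep138, and it passed in the 3 other settings tried (-0.83 to -0.78). Ms4a7 (207 and 152 CPM) differed by -0.42 (adjusted p = 0.207) and Ms4a14 (67.2 and 38.9 CPM) by -0.70 (0.0712), which passed without mCherry HFD rep129 (0.0479), without Tert HFD rep134 (0.0452) and at a subcluster resolution of 0.8 (0.0483). With TertCi, 19.2% of genes passed (7.66% higher and 11.5% lower). Ms4a7 was lower, at 144.2 and 149 CPM (log2 -0.70, SE 0.199, adjusted p = 0.0216), lost without mCherry HFD rep128 (0.388), TertCi HFD rep138 (0.179) or TertCi HFD rep140 (0.0857). Ms4a14 was lower as well, at 53.4 and 51.5 CPM (-0.79, SE 0.244, 0.0327), and the same 3 mice each ended that call (0.385, 0.215 and 0.125). Ms4a4a was higher, at 235 and 176 CPM against 123 and 89.9 (1.07, SE 0.209, 0.00206), lost without TertCi HFD rep138 (0.0913). Ms4a6d differed by -0.58 with TertCi (0.0590), and it passed in the 3 other settings (-0.73 to -0.64) and in none of the 8 fits without 1 mouse. For Tert against TertCi, Ms4a4a (111 and 71.7 against 235 and 176 CPM) differed by -1.16 (SE 0.219, unadjusted p = 8.21e-05, adjusted p = 0.125), and 501 of 9151 genes had an unadjusted p under 0.05 with none passing. Without mCherry HFD rep128 or rep129 this difference passed (adjusted p = 0.0477 and 0.0285).

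Within the lipid-associated subclusters the members were lower with Tert and with TertCi wherever they passed. These nuclei were mostly of subclusters 4 and 6 in mCherry HFD and mostly of subcluster 2 in Tert and TertCi mice. Of the nuclei of subcluster 2, 44.7% came from Tert HFD rep136, the shallowest library, where their median was 1344 UMIs. The part of depth in the levels of that subcluster was not tested. With Tert, 4 of 7 members were lower and none higher (9.77% of 11222 genes passed, 3.57% higher and 6.19% lower), with a median log2 difference of -1.16 over the members and -0.01 over all genes. With TertCi, 3 were lower and none higher (12.2% passed, 4.97% higher and 7.21% lower), with medians of -0.77 and -0.02.

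Ms4a7 in lipid-associated nuclei was at 307 and 248 CPM in mCherry HFD, 124 and 68.3 in Tert HFD and 58.6 and 55.4 in TertCi HFD, with no overlap between any of the 3 groups. It was 2.60-fold lower with Tert (log2 -1.38, SE 0.201, edgeR adjusted p = 0.00784) and 4.37-fold lower with TertCi (-2.13, SE 0.228, 0.00387). Ms4a14 was at 133 and 129.2, 46.9 and 31.9, and 23.2 and 17.7 CPM in the same order, again with no overlap. It was 2.99-fold lower with Tert (-1.58, SE 0.183, 0.00632) and 5.53-fold lower with TertCi (-2.47, SE 0.218, 0.00362). Within subclusters 4 and 6 only Tert HFD rep134 had enough nuclei to be set beside the mCherry HFD mice: its Ms4a7 in subcluster 4, at 357 CPM on 69 UMIs, lay between their 477 and 352, and in subcluster 6, at 67.3 CPM on 25 UMIs, below their 211 and 142. In subcluster 2, mCherry HFD rep129 had Ms4a7 at 38.4 CPM on 3 UMIs, below the 52.5 to 104.7 CPM of the Tert and TertCi mice. How much of the difference comes from the makeup of the subset was not tested. Without TertCi HFD rep138, which leaves 1 TertCi mouse, the TertCi calls of all members were lost. The share of all genes that passed in that fit is not given here. For Tert against TertCi the differences were 0.75 for Ms4a7 and 0.89 for Ms4a14 (unadjusted p = 0.0124 and 0.00544, adjusted p = 1 for both), and 405 of 11222 genes had an unadjusted p under 0.05 with none passing.

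Ms4a6c and Ms4a6d, which did not pass over all macrophage-like nuclei of the 8 mice, were lower with Tert in this subset. Ms4a6c was at 62.7 and 61.4 CPM in mCherry HFD, 32.8 and 19.8 in Tert HFD and 39.1 and 37.7 in TertCi HFD (log2 -1.07 with Tert, edgeR adjusted p = 0.0191, and -0.54 with TertCi, 0.143). Ms4a6d was at 64.5 and 67.8, 36.2 and 15.4, and 40.5 and 24.4 CPM (-1.16, 0.0357, and -0.77, 0.116). Both Tert calls were lost without mCherry HFD rep128 (0.119 and 0.124), mCherry HFD rep129 (0.0660 and 0.0953) or Tert HFD rep136 (0.0515 and 0.0899), and that of Ms4a6d also without TertCi HFD rep138 (0.0578) or rep140 (0.0587). The TertCi difference of Ms4a6d passed without Tert HFD rep134 (0.0418) or rep136 (0.0408). Ms4a6b was at 52.8 and 47.1, 35.1 and 26.4, and 23.2 and 24.4 CPM (-0.56, 0.130, and -0.94, 0.0367), a TertCi call lost without either mouse of mCherry HFD (0.248 and 0.108) or of TertCi HFD (0.278 and 0.120). Ms4a4a was at 37.1 and 22.7, 9.05 and 12.1, and 24.6 and 8.86 CPM (-1.45, 0.0657, and -0.51, 0.448). Its TertCi difference ran from -1.58 to -0.13 when 1 mouse was left out. The subset itself depended on the clustering. When clusters were made without Ms4a genes, 27 nuclei of Tert HFD rep134 and none of rep136 were named lipid-associated. With rep134 as the lone Tert mouse, its spread was borrowed from the other group, so no call is drawn there and only effect sizes follow. The differences of Ms4a7 and Ms4a14 were then -0.74 and -0.76, and those of Ms4a6c and Ms4a6d shrank to -0.44 and -0.15, while Ms4a4a went the other way, to a fitted -8.35. The TertCi mice had 4 and 0 such nuclei, so the TertCi differences of this subset could not be tested there.

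**Figure D5:**
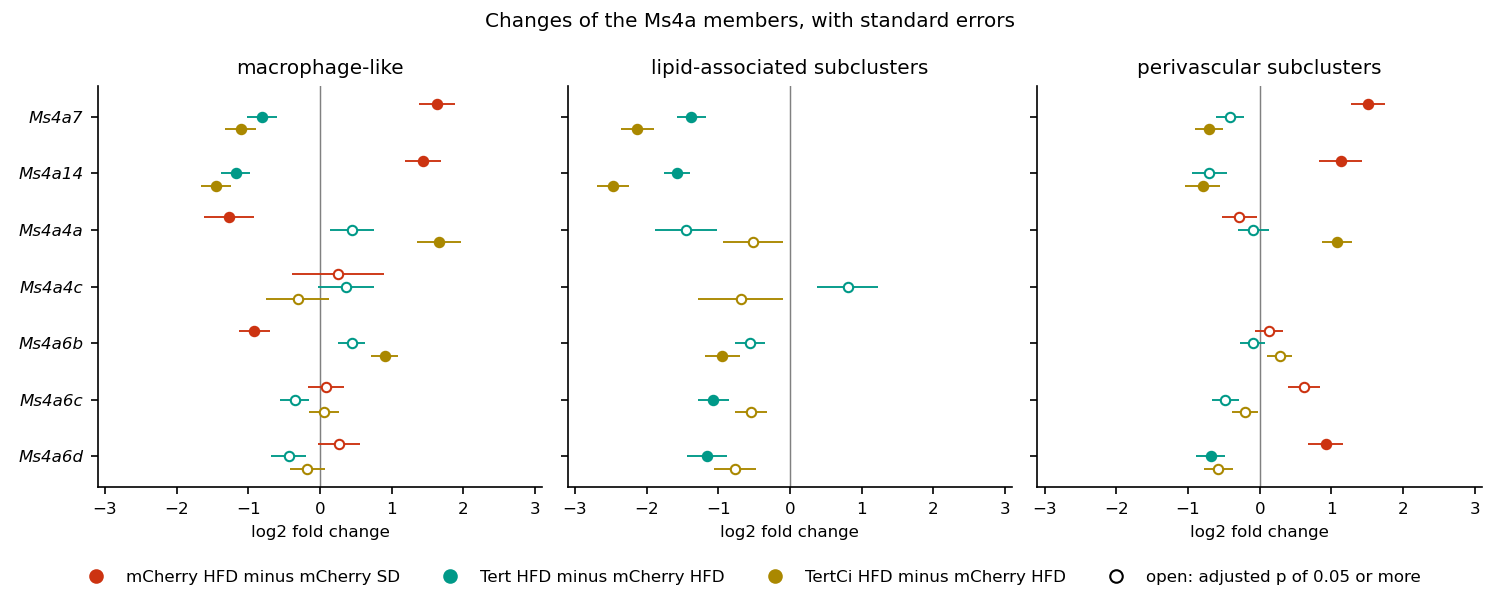
Log2 fold change of each member with its standard error, in macrophage-like nuclei, lipid-associated subclusters and perivascular subclusters, for mCherry HFD against mCherry SD, Tert HFD against mCherry HFD and TertCi HFD against mCherry HFD; filled points passed the edgeR threshold. In lipid-associated subclusters the 7 filled points lie left of 0, from -0.94 to -2.47, and in macrophage-like nuclei Ms4a7 and Ms4a14 lie right of 0 for diet and left of 0 for both genotypes.

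Whether a genotype difference was unequal between lipid-associated and perivascular subclusters was fitted in 1 model over both subsets, with the mouse as a block. The Ms4a genes were among those that made the subclusters, and with clusters made without them it was not run, since 1 Tert and no TertCi mouse kept enough lipid-associated nuclei, so its p-values are no independent test of the members. With Tert, the log2 difference was more negative in lipid-associated subclusters for Ms4a7 (-0.96, SE 0.169, edgeR adjusted p = 1.97e-05), Ms4a14 (-0.87, SE 0.227, 0.0122) and Ms4a4a (-1.51, SE 0.309, 0.000410), where 2.24% of 12102 genes passed (1.69% higher and 0.545% lower). With TertCi, 4 members had a more negative difference there: Ms4a7 (-1.46, SE 0.199, 2.83e-09), Ms4a14 (-1.68, SE 0.282, 2.20e-06), Ms4a4a (-1.67, SE 0.274, 1.29e-06) and Ms4a6b (-1.30, SE 0.255, 8.42e-05), where 4.04% passed (2.88% higher and 1.17% lower). Ms4a4c, Ms4a6c and Ms4a6d did not pass in either contrast. Without the mouse block no member passed with Tert and 1 with TertCi. The share of all genes that passed without the block is not given here. These counts thus cannot tell a loss of the members' calls from a loss over all genes. Which subclusters made up each subset also differed between the groups, as given above. Without Tert HFD rep134, Ms4a14 (adjusted p = 0.819) and Ms4a4a (0.8) were lost with Tert, and without TertCi HFD rep138, Ms4a14 (0.0686) and Ms4a6b (0.405) were lost with TertCi. Without mCherry HFD rep128, Ms4a4a with Tert was lost too (0.123), and without rep129, Ms4a14 with Tert (0.166).

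Outside the macrophage class, 3 members were higher on the high-fat diet in adipocyte-like nuclei, at lower levels. In adipocyte-like nuclei Ms4a7 was at 9.62 and 10.3 CPM in mCherry SD and 67.5 and 49.5 in mCherry HFD (log2 2.17, SE 0.329, edgeR adjusted p = 0.00199). Ms4a14 went from 2.41 and 4.48 to 28.7 and 23.0 CPM (2.47, 0.00675, lost without mCherry HFD rep128 at 0.0751), and Ms4a6d from 6.32 and 6.22 to 22.5 and 30.7 (1.65, 0.00544). These were 3 of 7 members, while 27.8% of 16072 genes passed (16.7% higher and 11.1% lower), and the high-fat values were below those of free RNA in the same mice, given above for Ms4a7 and Ms4a14 and at 50.6 and 46.8 CPM for Ms4a6d. In progenitor-like nuclei, 3 members passed the filter on low counts. Ms4a7 was at 0 and 2.40 CPM in mCherry SD (0 and 3 UMIs) and 21.3 and 29.0 in mCherry HFD (196 and 49 UMIs), and Ms4a6c at 1.48 and 3.99 (1 and 5 UMIs) against 15.6 and 24.3 CPM. Both entered through the groups where they are high, so no call is drawn from their edgeR adjusted p (0.00378 and 0.0178), where 11.9% of 12175 genes passed (7.83% higher and 4.11% lower). The fitted log2 difference of Ms4a7 ran from 3.19 to 9.36 when 1 mouse was left out, so its size is not known, and Ms4a6c did not pass without mCherry SD rep144 (0.0949), mCherry SD rep146 (0.0971) or mCherry HFD rep129 (0.0739). In endothelial-like nuclei only mCherry SD rep146 gave a standard-diet value, from 25 nuclei, and the spread of that lone mouse was borrowed from the groups of 2. None of 6 members passed there (3.44% of 7987 genes did, 1.87% higher and 1.58% lower), which says little with 1 mouse in that group.

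The genes whose level followed each member over classes and mice were listed next, as Pearson's r of log CPM over 44 sums of class and mouse and over 17533 genes. The points share libraries, depth and free RNA, so no test was made. The first 5 for Ms4a7 were Ms4a14 (0.94), the lysosomal protease Ctsb (0.92), the complement receptor C3ar1 (0.90), Hpgds (0.90) and Itm2b (0.88). The first 5 for Ms4a14 included Ms4a7, Ctsb (0.90), C3ar1 and Wdr91 (0.88 each). For Ms4a4a the list held Wwp1 (0.92), the endothelin receptor Ednrb (0.91), the RNA sensor Tlr7 (0.90) and Ms4a6b (0.90) after an unnamed gene at 0.93, and for Ms4a6b it held Tlr7 (0.96), Wwp1 (0.92), Aoah (0.91), Dclre1c and Ms4a4a (0.90 each). Those of Ms4a6c included the complement receptor C5ar1 and Wdr91 (0.88 each), Milr1 (0.84) and Ms4a14 (0.83). Those of Ms4a6d included Gatm (0.92), the scavenger receptor Msr1, Pla2g7 and Ptpn18 (0.90 each). Ms4a4c had no gene above 0.78.

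Partner receptors and other macrophage genes gave the members their surroundings, each from a list set with earlier results of these data known. Of 10 partner receptors and adaptors, 4 were higher and 1 lower with the diet in macrophage-like nuclei (median log2 difference 0.50, all genes 0.10), 1 higher and 3 lower with Tert (-0.35) and 1 higher and 3 lower with TertCi (-0.65). Over all genes, 20.7% passed with the diet, 17.6% with Tert and 23.6% with TertCi, and the counts of this and the other lists are to be read against these shares. Trem2, a lipid receptor, was higher with the diet (log2 3.56, edgeR adjusted p = 3.72e-05) and lower with Tert (-1.62, 0.000802) and TertCi (-2.18, 0.000143). Clec7a, dectin-1, was higher with the diet (1.99, 0.000801) and lower with Tert (-0.80, 0.0203), whereas its partner Ms4a4a was lower with the diet. Tyrobp, the adaptor of Trem2, was higher with the diet (2.13) and lower with Tert (-1.56) and TertCi (-1.76), and the inhibitory Fc receptor Fcgr2b had the reverse signs (-1.32, 0.94 and 1.17), all passing.

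Of 9 tetraspanins, which also cross the membrane several times, 3 were higher with the diet (Cd9 2.90, Cd63 2.33 and Cd37 0.80), 3 lower with Tert and 3 lower with TertCi, none in the other direction, so 3 of 9 passed in each contrast beside the 20.7%, 17.6% and 23.6% of all genes. Of 17 myeloid transcription factors tested out of 18 listed, 5 were higher and 2 lower with the diet, 2 higher and 1 lower with Tert, and 2 of each with TertCi, and the 3 of 17 with Tert are the same share as the 17.6% of all genes. Maf, a factor of resident macrophages, was lower with the diet (-1.04) and higher with Tert (0.78) and TertCi (0.94). It is the only factor of this list whose values are given. With the diet it went in the direction of the smaller number, so it does not stand for the list. Of 12 genes made by macrophages in general, 2 were higher with the diet, 4 lower with Tert and 4 lower with TertCi, and the 2 of 12 with the diet lie below the 20.7% of all genes. The 2 Ms4a-like genes Tmem176a and Tmem176b did not pass in any contrast, and no gene of the 5 lists passed for Tert against TertCi.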

How the data were processed

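Nuclei of visceral white adipose tissue from 8 mice (4 groups of 2) were analysed from the deposited UMI counts per feature and barcode, which the authors made with Cell Ranger 7.1.0 per the file headers. The submitters' processing notes name Cell Ranger 5.0.1, bcl2fastq 2.20.0 and build mm39, and whether intronic reads were counted is not given in the sources used here. Tissue was processed in small batches in random order per the labels' protocols, but which mice shared one is not recorded, so batch and group cannot be told apart. The series' design text speaks of stromal vascular cells and p21+/- mice, and the sample labels were followed.

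Each library had its own UMI minimum for a nucleus, 0.1 of percentile 99 among its top 5000 barcodes and never under 500, which came to 987 to 4705 UMIs. Barcodes under 300 genes or over 5% mitochondrial UMIs were dropped. Doublets were removed as the highest scores at 0.8% per 1000 nuclei. Scanpy 1.11.5 clustered the nuclei (2000 variable genes, 30 components, 15 neighbours, Leiden resolution 1), and 30 clusters were named by at least 3 raised markers of a list. Clusters with markers of 2 lineages (8500 nuclei) were left mixed and form no class here, nor do unnamed ones. A second clustering of macrophage-like nuclei used resolution 0.5. UMIs were summed per mouse and class, with at least 20 nuclei. They were tested with edgeR 4.0.16 in R 4.3.3 (quasi-likelihood, TMM, its filter on low counts, all groups in 1 fit, Benjamini-Hochberg over all genes). A run on simulated counts changed fewer genes than passed in the diet, Tert and TertCi contrasts of macrophage-like nuclei, so it is no check of these. DESeq2 1.42.0, other scalings, no filter, other nucleus sets and leaving out each mouse were alternatives. With 2 mice a group, a p-value rests on the spread between few animals, shared over the groups of a fit. In edgeR each gene's spread is also drawn toward that of other genes. In summed nuclei fewer molecules per nucleus cannot be told apart from fewer nuclei making the RNA. Intervals on single levels are exact Poisson and cover counting error only. The members are named in full, and other genes by fixed lists or by likeness (5 highest), and 2 genes that these name are not reported here. The members and lists were chosen with earlier results of these data known.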

Additional observations from a re-analysis of the deposited data

Results flagged for a closer look

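The genotype differences of 4 members were unequal between lipid-associated and perivascular subclusters, by 1 edgeR model with the mouse as a block, and are listed for that reason. The Ms4a genes helped to make these subclusters, and the model was not run on clusters made without them, where 1 Tert and no TertCi mouse kept enough lipid-associated nuclei, so this is no independent test. For Tert HFD against mCherry HFD the difference in lipid-associated subclusters minus that in perivascular ones was -0.96 on the log2 scale for Ms4a7, -0.87 for Ms4a14 and -1.51 for Ms4a4a. For TertCi HFD against mCherry HFD it was -1.46 for Ms4a7, -1.68 for Ms4a14, -1.67 for Ms4a4a and -1.3 for Ms4a6b. Leaving out 1 mouse, Ms4a4a ran from -1.88 to -0.66 with Tert and from -2.49 to -1.48 with TertCi. These 7 cases are listed because they passed, and the shares of all genes that passed are given with the model above. Of the members that did not pass, Ms4a4c with Tert was at 0.72 and the others were below 0. Ms4a8a, a family gene that is not a member, was at 1.21 with Tert and 1.93 with TertCi. In each of the 7 cases the value was below 0, so those members stood lower in lipid-associated subclusters than the perivascular difference alone would give. Without the block the members' values were close to these and 1 passed, Ms4a14 with TertCi. The share of all genes that passed in that fit is not given here. Subcluster 2, which holds most lipid-associated nuclei of the Tert and TertCi mice, stayed unnamed in the clusterings made without Ms4a genes, with doublets kept and with 1000 UMIs as the minimum, and at a resolution of 0.8 it was named in the first set of nuclei and with that minimum. The subclusters behind each name differed between the groups, and the part of that in these values was not tested.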

How the results depend on the processing

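No paired analysis was possible because the mice of different groups share no label number. The counts of members in this and the next paragraph are given without the share of all genes that passed in the same fit. They cannot tell a loss of the members' calls from a loss of calls over all genes. Ms4a14 with Tert and with TertCi, and Ms4a7 with the diet, kept their call in macrophage-like nuclei under every setting run, and each of the other calls over macrophage-like nuclei was lost under at least 1. Leaving out each mouse in turn, the number of members that passed ran from 1 to 4 for diet, 1 to 3 for Tert and 1 to 4 for TertCi in macrophage-like nuclei, with 1 left without mCherry SD rep146, mCherry HFD rep128 and TertCi HFD rep138 in that order. It ran from 2 to 4 (Tert) and 0 to 4 (TertCi) in lipid-associated subclusters, and from 1 to 3 (diet), 0 to 1 (Tert), 0 to 3 (TertCi) and 0 to 1 (Tert against TertCi) in perivascular ones. The difference between the subsets gave 1 to 3 (Tert) and 2 to 4 (TertCi), and progenitor-like nuclei, where no call is drawn, 1 to 2.

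Of the other settings, thinning nuclei to 1000 UMIs left 1 member with the diet (6 could be tested), no filter on low counts gave 1 for Tert against TertCi, clusters without Ms4a genes left 0 for Tert in lipid-associated subclusters (with 1 Tert mouse, whose spread was borrowed), the TertCi contrast could not be fitted and the difference between subsets was not run with those clusters, a subcluster resolution of 0.8 gave 2 for Tert in perivascular ones, and dropping the mouse block left 0 and 1 for the difference between subsets. The cause was not tested.

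Values that changed sign had not passed the test before. In macrophage-like nuclei, leaving out 1 mouse gave Ms4a4c -0.12 to 0.44 (diet) and -0.55 to 0.10 (TertCi), Ms4a6c -0.0017 to 0.14 (diet) and -0.16 to 0.17 (TertCi), Ms4a6d -0.048 to 0.47 (diet) and -0.57 to 0.023 (TertCi), and Ms4a4a -0.30 to 0.78 (Tert). For Tert against TertCi it gave Ms4a7 -0.11 to 0.58, Ms4a14 -0.11 to 0.50 and Ms4a6d -0.70 to 0.11. In lipid-associated subclusters that contrast gave Ms4a4a -1.26 to 0.14 and Ms4a6d -1.06 to 0.090, and in perivascular ones Ms4a14 -0.41 to 0.26 and Ms4a6d -0.24 to 0.16. Perivascular Ms4a4a with Tert ran from -0.46 to 0.18, and Ms4a6b from -0.22 to 0.054 with Tert and -0.015 to 0.26 with the diet. In other classes the diet gave Ms4a4a -0.56 to 0.36 and Ms4a6b -0.13 to 0.051 in adipocyte-like, Ms4a6b -0.033 to 0.68 in progenitor-like and Ms4a6d -0.34 to 0.043 in endothelial-like nuclei.

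Ms4a6c with TertCi was -0.12 with library totals in place of TMM and -0.13 with 1000 UMIs as the minimum in every library, and with the diet it was -0.0025 with clusters without Ms4a genes. Ms4a4c changed sign most often: with Tert it was -0.73 with that minimum, -0.54 with clusters without Ms4a genes and -0.78 with doublets kept, for Tert against TertCi -0.44, -0.099 and -0.43 in the same order, and with TertCi 0.20 when nuclei were taken by marker UMIs. In adipocyte-like nuclei with no filter Ms4a4a was -0.025 and Ms4a6b -0.084. Depth limits Ms4a4c, which rests on 265 UMIs in macrophage-like nuclei, and Tert HFD rep136, whose nuclei had a median of 1363 UMIs.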

Other observations

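Ms4a8a, a family gene outside the 7, was chosen for mention after its values were seen. In macrophage-like nuclei it was at 145 and 104 CPM in mCherry SD, 35.3 and 24.7 in mCherry HFD, 99.8 and 71.2 in Tert HFD and 92.7 and 88.6 in TertCi HFD. Its level was thus lowest in both mCherry HFD mice, the reverse of Ms4a7 and Ms4a14. It was 4.46-fold lower with the diet (log2 -2.16, edgeR adjusted p = 0.000157), 3.11-fold higher with Tert (1.64, 0.000986) and 3.33-fold higher with TertCi (1.74, 0.000469). Of the large subclusters, it was at 131 and 119 CPM in the perivascular subclusters 0 and 1. In the lipid-associated subclusters 2, 4 and 6 it was at 35.0, 11.6 and 5.50 CPM. It was highest in the small subcluster 3 (21 nuclei, named large peritoneal), at 324 CPM. In the small subclusters 5, 7 and 8 it was at 74.4, 9.90 and 8.50 CPM. In dendritic-like nuclei of the 6 high-fat mice it ran from 31.5 to 132 CPM. Within the perivascular subclusters alone it did not pass with the diet (-0.34, adjusted p = 0.449), Tert (0.48, 0.256) or TertCi (0.36, 0.345), and within lipid-associated ones it was higher with Tert (1.71, 0.0178) and TertCi (2.198, 0.00829).

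Ms4a4b, known from T cells, was at 11.2 and 2.67 CPM in macrophage-like nuclei of mCherry SD, 22.3 and 23.9 in mCherry HFD, 4.30 and 2.14 in Tert HFD and 3.07 and 6.67 in TertCi HFD. It was lower with Tert (log2 -2.53, edgeR adjusted p = 0.00333) and TertCi (-2.34, 0.00476), and free RNA of the mCherry HFD mice held it at 25.4 and 29.6 CPM, no lower than their macrophage-like nuclei. Ms4a4d was at its highest in progenitor-like nuclei, at 88.7 and 104 CPM in mCherry SD and 60.9 and 57.5 in mCherry HFD, and it fell there with the diet (-0.91, adjusted p = 0.00681).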
